A study of Mus musculus with 8 samples.

Results

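The vascular endothelial growth factor (VEGF) system was examined in epididymal white adipose tissue (eWAT), a visceral fat depot beside the testis. It comprised 9 genes, chosen by name with earlier results of these data known: 4 ligands (Vegfa, Vegfb, Vegfc and Pgf), 3 receptor tyrosine kinases (Kdr, Flt1 and Flt4) and 2 neuropilin co-receptors (Nrp1 and Nrp2). The array measured 22180 genes by name. Each gene was read from a probe set that carries its symbol alone, and of several such probe sets one was to be selected on its mean signal over all 8 arrays, the brightest being kept. Since each of the 9 genes had 1 such probe set, with a mean signal between 3.40 (Pgf) and 9.997 (Vegfa), the measured values decided nothing. Tissue came from male mice on a C57BL/6J background, 5 Abhd15 knockout (KO) and 3 wild type (WT), with 1 Affymetrix Mouse Gene 2.0 ST array per mouse. All mice were 14 weeks old on normal chow, went without food overnight and ate for 1 h before the fat was taken. The labels do not say how the knockout allele was made or in which cells it acts. ABHD15 belongs to the alpha/beta-hydrolase proteins and is made in adipocytes, and the comparison asks how its loss alters fat gene expression in the early refed state.

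VEGF ligands are secreted dimers that bind receptor tyrosine kinases on blood and lymphatic endothelial cells. VEGF-A acts mainly through KDR (VEGFR2), which drives endothelial growth, survival and permeability, whereas FLT1 (VEGFR1) binds VEGF-A tightly with weak kinase output and also binds VEGF-B and placental growth factor. VEGF-C signals through FLT4 (VEGFR3), chiefly in lymphatic vessels, and the neuropilins present the ligands to the kinases and also serve as semaphorin receptors. In fat, adipocytes are a main source of VEGF-A and VEGF-B, and the receptors sit mostly on the capillaries between them.

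The values are log2 signals, and the signals of different probe sets are not comparable with one another, so each gene is compared only with itself across arrays. Over all arrays the median of all probe sets lay between 2.93 and 3.12, and the correlation between 2 arrays was between 0.962 and 0.978. A gene was tested when its mean over the 8 arrays reached 3.61, the median of all gene means, which left 11090 genes. Of the 9 VEGF genes 8 passed this level and Pgf, with a mean of 3.40, did not. Abhd15 read 5.77, 6.07, 6.27, 5.60 and 5.75 in KO arrays 1 to 5, against 6.36, 6.45 and 6.15 in WT arrays 1 to 3, so that KO 3 lay inside the WT range. The position of its probes relative to the deleted part is not stated, so this signal does not check the genotype labels. Some libraries stood apart in other transcripts. The mean of 10 immediate early genes, which are induced within minutes by stimulation or handling, reached 7.06, 7.07 and 6.18 in KO arrays 1 to 3, against 5.28 to 5.53 in KO 4 and KO 5 and 5.04 to 5.52 in WT. The erythroid gene Slc4a1, the 1 marker of that list measured, read 4.72 in KO 1 and 5.28 in KO 2, against 2.61 to 3.10 in the other KO arrays and 2.90 to 3.11 in WT. Transcripts of sperm and testis had a list mean of 5.32 in KO 4 and 3.69 to 4.24 in the other KO arrays, against 6.77 in WT 1, 5.52 in WT 2 and 3.50 in WT 3. Those of the epididymis and seminal vesicle were high in KO 4 (list mean 4.67) and WT 1 (3.41), against 1.95 to 2.27 in the other KO arrays and 1.97 to 2.11 in the other WT arrays. The mean of the adipocyte markers was 10.1 to 10.6 in KO and 10.3 to 10.5 in WT, and all 10 markers passed the level filter.

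Kdr was lower in KO than in WT fat, Nrp2 was lower by a smaller amount, and the ligand Vegfa had the same mean in both genotypes. Neither Kdr nor any other VEGF gene passed the threshold in limma after adjustment over all 11090 genes, where no gene passed (0.0%) and 1164 genes had an unadjusted p under 0.05. All 5 KO arrays lay below all 3 WT arrays for Kdr and Nrp2, that is for 2 of the 8 tested genes, whereas 5.54% of all tested genes were separated in that direction. No VEGF gene was separated in the other direction, against 2.99% of all tested genes. The same 2 genes had an unadjusted p under 0.05 with a lower signal in KO, against 6.46% of all tested genes, and no VEGF gene had one with a higher signal, against 4.04%. Of the 5 receptors 4 were lower in KO at any size, and all 3 tested ligands were higher, although Vegfa was so by less than 0.001; of all tested genes 55.2% were lower.

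**Figure D1:**
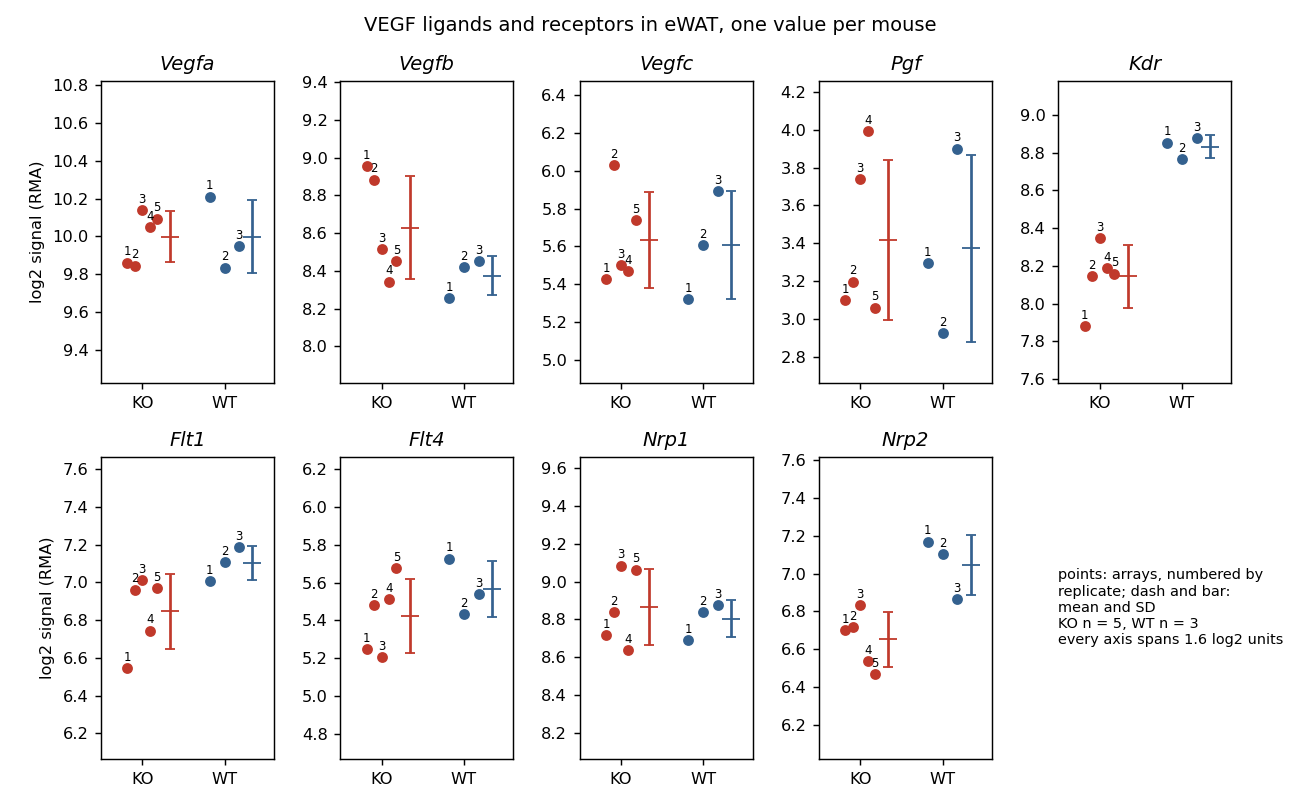
Log2 signal (vertical axis) of each VEGF gene in the 5 KO arrays (red) and 3 WT arrays (blue), numbered by replicate, with mean and SD beside the points. The points of KO and WT are separate for Kdr and, by a narrow gap, for Nrp2, and overlap or touch for the other 7 genes.

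Among the receptor kinases Kdr, the main signalling receptor for VEGF-A, read 7.88, 8.14, 8.35, 8.19 and 8.16 in KO arrays 1 to 5, against 8.85, 8.76 and 8.88 in WT arrays 1 to 3. The highest KO array, KO 3, lay 0.418 below the lowest WT array, a gap wider than the SD of either group. The mean was 8.14 ± 0.168 in KO (SD, n = 5) and 8.83 ± 0.0595 in WT (SD, n = 3), which is a log2 fold change of -0.69 (SE 0.130, 95% interval -0.98 to -0.40), so that the KO signal was 62.1% of the WT signal. The unadjusted p in limma was 0.000365, rank 27 among the 11090 tested genes, and the adjusted p was 0.150. With arrays weighted by their quality, where 40 genes passed (0.361% of those tested), Kdr passed at an adjusted p of 0.0476 with a log2 fold change of -0.69 (SE 0.117). The value was also -0.69 without WT 1 and KO 4, the arrays with the highest sperm or epididymal transcripts, and -0.60 without KO 1 and KO 2, those with the highest immediate early genes. Over all alternatives tried its adjusted p ranged from 0.0476 to 0.573.

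Flt1, the receptor that also exists as a soluble VEGF trap, read 6.54, 6.96, 7.012, 6.74 and 6.97 in KO arrays 1 to 5, against 7.007, 7.11 and 7.19 in WT arrays 1 to 3. Of the KO arrays 4 lay below the whole WT range, and KO 3 exceeded WT 1 by 0.005. The mean was 6.85 ± 0.198 in KO (SD, n = 5) and 7.10 ± 0.0898 in WT (SD, n = 3), which is a log2 fold change of -0.25 (SE 0.141, 95% interval -0.57 to 0.06; adjusted p = 0.553 in limma). Flt4, the lymphatic receptor for VEGF-C, read 5.25, 5.48, 5.21, 5.52 and 5.68 in KO arrays 1 to 5, against 5.73, 5.43 and 5.54 in WT arrays 1 to 3. The groups overlapped, with 2 KO arrays below the lowest WT array, and the log2 fold change was -0.14 (SE 0.145, adjusted p = 0.768 in limma). That value rested on single arrays: it was -0.062 without WT 1, -0.087 without KO 3 and -0.21 without WT 2.

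Of the neuropilins, Nrp2, which pairs with FLT4 and binds VEGF-C as well as class 3 semaphorins, read 6.70, 6.72, 6.83, 6.54 and 6.47 in KO arrays 1 to 5, against 7.17, 7.11 and 6.87 in WT arrays 1 to 3. The groups did not overlap, but the gap between KO 3 and WT 3 was 0.033, less than the SD of either group. The mean was 6.65 ± 0.147 in KO (SD, n = 5) and 7.05 ± 0.160 in WT (SD, n = 3), which is a log2 fold change of -0.40 (SE 0.134, 95% interval -0.69 to -0.097), or 76.0% of the WT signal. Its unadjusted p was 0.0146 and its adjusted p 0.352 in limma. The unadjusted p was above 0.05 with the replicate number as a block (0.0806), without WT 1 (0.0591), without WT 2 (0.0522) and without WT 1 and KO 4 together (0.103). Nrp1, the co-receptor that joins KDR in a complex with VEGF-A, read 8.72, 8.84, 9.09, 8.64 and 9.06 in KO arrays 1 to 5, against 8.69, 8.84 and 8.88 in WT arrays 1 to 3. KO arrays lay on both sides of the WT range, and the log2 fold change was 0.065 (SE 0.143, 95% interval -0.25 to 0.38; adjusted p = 0.900 in limma), ranging from 0.0095 without WT 1 to 0.12 without KO 4 when single arrays were left out.

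Among the ligands Vegfa, the main angiogenic factor, read 9.86, 9.85, 10.14, 10.05 and 10.09 in KO arrays 1 to 5, against 10.21, 9.83 and 9.95 in WT arrays 1 to 3. All KO arrays lay within the WT range. The mean was 9.997 ± 0.136 in KO (SD, n = 5) and 9.997 ± 0.193 in WT (SD, n = 3), and the log2 fold change of 0.0003 had a 95% interval of -0.30 to 0.30, which spans a KO signal of 0.811 to 1.23 times that of WT (adjusted p = 0.999 in limma). With 5 and 3 arrays, differences of Vegfa inside that interval are not excluded. The interval is not a limit of detection, since Kdr, at a log2 fold change of -0.69, did not pass after adjustment.

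Vegfb, which binds FLT1 and has been linked to endothelial fatty acid transport, read 8.95, 8.88, 8.52, 8.34 and 8.453 in KO arrays 1 to 5, against 8.26, 8.42 and 8.45 in WT arrays 1 to 3. The KO values formed a high pair, KO 1 and KO 2, and 3 arrays at or near the WT range. The mean was 8.63 ± 0.272 in KO (SD, n = 5) and 8.38 ± 0.103 in WT (SD, n = 3), giving an adjusted p of 0.618 in limma for a log2 fold change of 0.25 (SE 0.166). KO 1 and KO 2 are also the arrays with the highest immediate early gene means and Slc4a1 signals, and without both the log2 fold change of Vegfb was 0.061 (adjusted p = 0.910 in limma). With the replicate number as a block, a fit that rests on KO 1 to KO 3, it was 0.41 (unadjusted p = 0.0444, adjusted p = 0.266 in limma).

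Vegfc, the lymphangiogenic ligand, read 5.43, 6.03, 5.50, 5.47 and 5.74 in KO arrays 1 to 5, against 5.32, 5.61 and 5.89 in WT arrays 1 to 3. The groups overlapped, with a log2 fold change of 0.026 with an SE of 0.182 (adjusted p = 0.972 in limma) whose sign turned without WT 1 (-0.12), without KO 2 (-0.074) and without KO 5 (-0.001). Pgf, placental growth factor, a ligand of FLT1, read 3.10, 3.20, 3.74, 4.00 and 3.06 in KO arrays 1 to 5, against 3.30, 2.92 and 3.90 in WT arrays 1 to 3. Each genotype held low and high arrays, and in the fit without the level filter the log2 fold change was 0.045 (SE 0.274, adjusted p = 0.975 in limma). At this dim signal the method compresses differences, and the SE of Pgf was the largest of the 9.

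**Figure D2:**
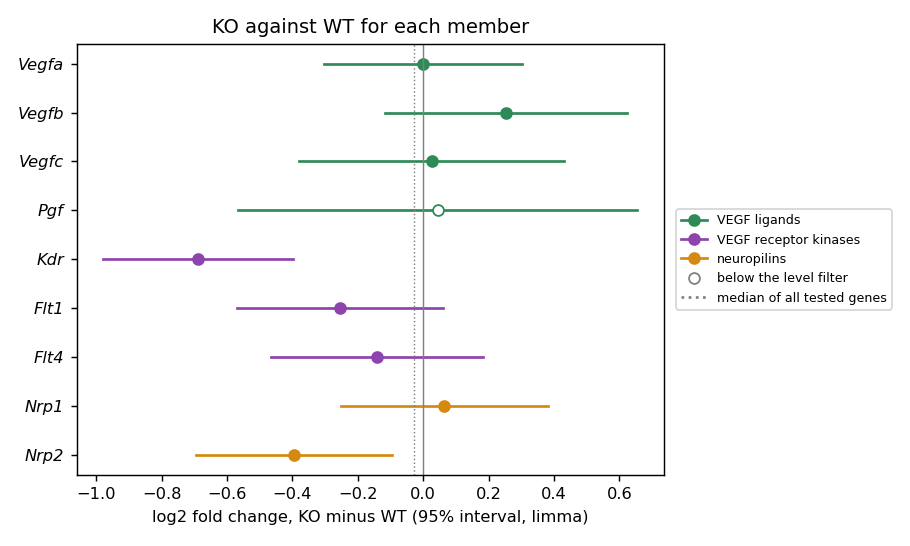
Log2 fold change, KO minus WT, of the 9 VEGF genes (points) with 95% intervals from limma (lines), coloured by role; the dotted line is the median of all tested genes (-0.028). The intervals of Kdr (-0.98 to -0.40) and Nrp2 (-0.69 to -0.097) lie below 0, and those of the 4 ligands, Flt1, Flt4 and Nrp1 span it.

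Ligands and receptors were set side by side as deviations from the WT mean of each gene, averaged within each array. The mean over the 5 receptors was -0.45, -0.24, -0.17, -0.34 and -0.20 in KO arrays 1 to 5, against 0.020, -0.019 and -0.001 in WT arrays 1 to 3. Every KO array thus lay below every WT array, also with Kdr left out, where the KO arrays lay between -0.33 and -0.085 and the WT arrays between -0.012 and 0.020. The mean without Kdr still holds Nrp2, whose groups also did not overlap. Flt1, Flt4 and Nrp1 each overlapped between the groups, so the separation does not describe the receptors as a class. The mean over the 4 ligands was -0.004, 0.15, 0.13, 0.13 and -0.002 in KO arrays 1 to 5, against -0.067, -0.14 and 0.21 in WT arrays 1 to 3, with complete overlap. The ligand mean minus the receptor mean was 0.20 to 0.47 in KO arrays and -0.12 to 0.21 in WT arrays, where the lowest KO array (KO 5, 0.2009) lay just under the highest WT array (WT 3, 0.2097). The median log2 fold change was 0.035 over the 4 ligands and -0.25 over the 5 receptors, against -0.028 over all tested genes. The ligand value rested on single arrays: over the 3 tested ligands, without Pgf, the median was 0.026 with all arrays, -0.001 without KO 5, 0.11 without WT 1 and 0.17 without WT 3. These summaries describe genes chosen with results of these data known and carry no test, and the WT values centre on 0 by construction. The ligand values leave out Vegfd, which was lower in KO (-0.39).

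**Figure D3:**
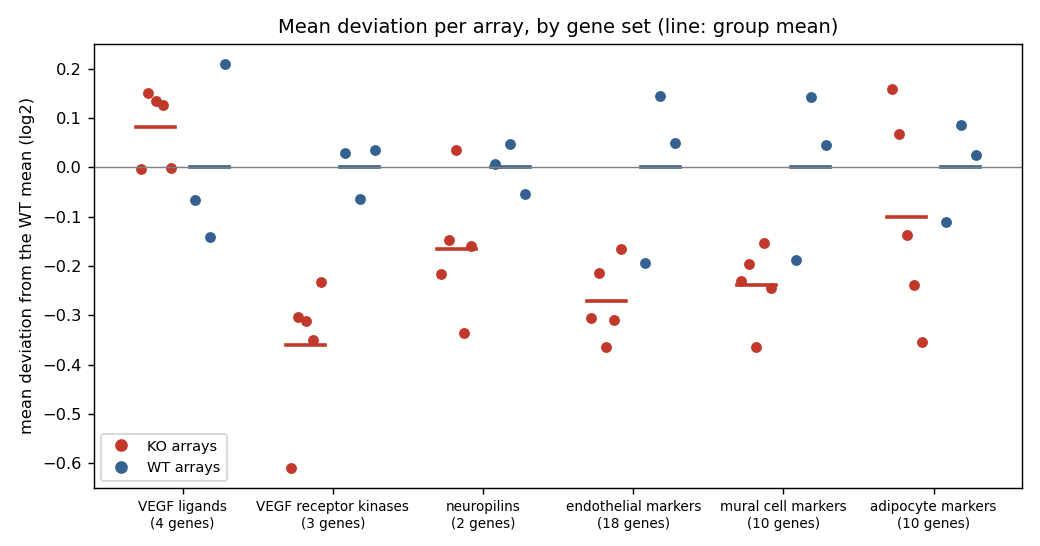
Mean deviation from the WT mean (log2, vertical axis) in each KO array (red) and WT array (blue) for the VEGF genes by role and for endothelial, mural and adipocyte markers; lines are group means. The receptor kinases are separate between KO (-0.61 to -0.23) and WT (-0.064 to 0.035), and the ligands and the 3 marker lists overlap.

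The receptor genes are mainly endothelial, so their values were read beside markers of the vessel wall. Of 18 endothelial markers, all of which passed the level filter, 14 were lower and 4 higher in KO, with a median log2 fold change of -0.37 against -0.028 over all tested genes. None passed after adjustment, and 8 were lower and 1 higher at an unadjusted p under 0.05, against 6.46% lower and 4.04% higher among all tested genes. The 4 with the smallest p were Ecscr, an endothelial surface protein known to affect VEGF signalling (-0.92, adjusted p = 0.122 in limma), the adhesion molecule Icam2 (-0.48), Cd93 (-0.44) and the junction protein Pecam1 (-0.64). The 1 higher marker was the tight junction gene Cldn5 (0.61), named after its value was seen. The mean level of the list was 6.86 to 7.06 in KO and 7.03 to 7.37 in WT, so WT 1 (7.034) lay below KO 5 (7.065). In whole tissue, fewer endothelial cells and less RNA per endothelial cell cannot be told apart.

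Kdr deviated from WT by more than the mean of these markers in all 5 KO arrays. That mean takes in the 4 markers that were higher in KO. Single markers fell further than Kdr (-0.69) or nearly as far, Ecscr by -0.92 and Pecam1 by -0.64. The difference, Kdr minus the marker mean, was -0.65, -0.47, -0.12, -0.33 and -0.51 in KO arrays 1 to 5, against 0.22, -0.21 and -0.005 in WT arrays 1 to 3. KO 3 lay above WT 2, so the groups overlapped on this scale. WT 1, the WT array with the lowest endothelial marker mean, had Kdr at the level of the other WT arrays. Mural cell markers, of pericytes and smooth muscle, were lower in 8 of 10 cases (median -0.24), against 55.2% of all tested genes. Tagln was at -0.46, Kcnj8 at -0.54, Pdgfrb at -0.44 and Abcc9 at -0.26. The 2 higher ones, named after their values were seen, were the smooth muscle genes Acta2 (0.14) and Myh11 (0.11). None of the mural markers passed after adjustment. Of the lymphatic markers tested 3 of 4 were higher (median 0.037), with Lyve1 at 0.013, Mmrn1 at 0.062, Pdpn at -0.13 and Reln at 0.36. The part of cell makeup in the lower Kdr signal was not tested.

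**Figure D4:**
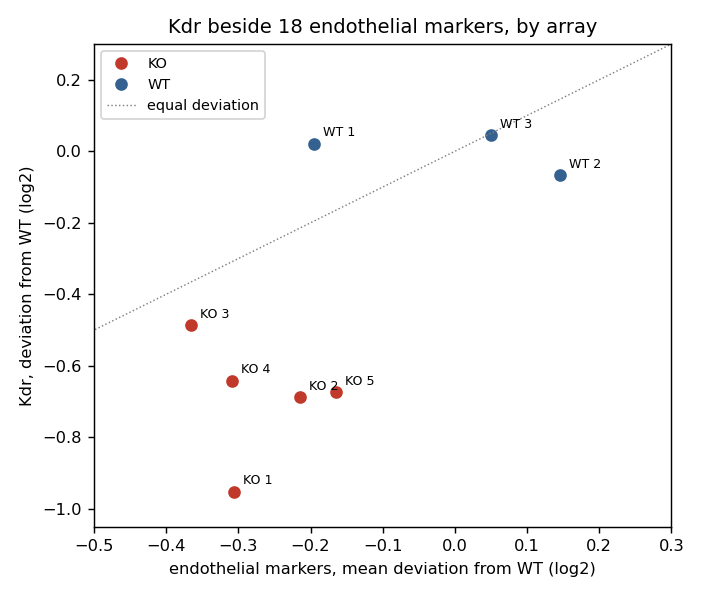
Deviation of Kdr from its WT mean (vertical axis, log2) against the mean deviation of 18 endothelial markers (horizontal axis, log2) in each of the 5 KO arrays (red) and 3 WT arrays (blue); the dotted line marks equal deviation. All KO arrays lie below the line, KO 3 by 0.12, and WT 1 lies above it with low markers and a Kdr signal near that of the other WT arrays.

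Markers of other cells in the fat pad were spread around the background. Lower in KO were 7 of 10 adipocyte markers (median -0.12), with Pparg, the master regulator of fat cell formation, at -0.47, Adipoq at -0.30, Slc2a4 at 0.14 and Retn at -0.14. Of the fibroblast and preadipocyte markers 5 of 8 were lower (median -0.046; Cd34 -0.30, Dcn -0.19, Pi16 0.23, Col1a1 0.20), and of the macrophage markers 7 of 10 (median -0.083; Lyz2 -0.25, C1qa -0.28, Mertk 0.20, Csf1r 0.27). Of the mesothelial markers 3 of 8 were lower (median 0.14; Muc16 -0.85, Msln 0.25, Krt8 0.49, Upk3b 0.18). None of these genes passed after adjustment in limma.

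Printed below, with motif matches marked, are the start regions of Kdr and Nrp2, the receptors whose genotypes did not overlap, although neither passed after adjustment. That of Vegfa, the ligand with equal means, is printed as well. Each is the 250 bases before a start site, from RefSeq on GRCm38.p6, read 5′ to 3′ on the gene's strand; all 9 genes had an entry. Capitals mark matches on either strand to the GC box bound by Sp factors (GGGCGG), the core of the hypoxia response element (ACGTG or GCGTG) and an ETS core (CAGGAA or CCGGAA).
Kdr, chr5:75978456-75978705, minus strand: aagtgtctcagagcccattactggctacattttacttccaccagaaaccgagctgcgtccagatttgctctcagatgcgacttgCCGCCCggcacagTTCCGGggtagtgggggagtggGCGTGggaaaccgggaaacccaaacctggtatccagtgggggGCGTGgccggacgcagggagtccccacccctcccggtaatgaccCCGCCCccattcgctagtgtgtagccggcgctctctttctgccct
Nrp2, chr1:62703067-62703316, plus strand: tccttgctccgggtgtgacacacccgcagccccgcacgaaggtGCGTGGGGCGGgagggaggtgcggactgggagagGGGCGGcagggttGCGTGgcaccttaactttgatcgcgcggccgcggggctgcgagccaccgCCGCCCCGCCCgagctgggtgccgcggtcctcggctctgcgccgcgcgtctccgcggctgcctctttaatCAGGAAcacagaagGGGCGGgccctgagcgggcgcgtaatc
Vegfa, chr17:46032378-46032627, minus strand: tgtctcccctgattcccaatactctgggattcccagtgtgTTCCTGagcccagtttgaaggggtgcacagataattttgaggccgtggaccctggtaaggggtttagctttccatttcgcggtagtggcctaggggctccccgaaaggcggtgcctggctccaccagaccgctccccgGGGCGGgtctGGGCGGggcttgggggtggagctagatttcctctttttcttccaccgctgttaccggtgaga
The Kdr window held 2 GC boxes, 2 hypoxia cores and 1 ETS core, and the Nrp2 window 5 GC boxes, of which 1 pair overlaps, 2 hypoxia cores and 1 ETS core. The printed Vegfa window held 2 GC boxes, 1 ETS core and no hypoxia core, whereas the other window listed for Vegfa (chr17:46025164-46025413, minus strand) held 1 GC box, 2 hypoxia cores and no ETS core. Over the 11 windows listed for the 9 genes, a GC box was found for all 9 genes, a hypoxia core for 7 and an ETS core for 3. Vegfa counted towards the hypoxia core only through its other window, downstream of the printed one on the gene's strand. Both hypoxia cores of that window fall in a stretch that reads as VEGF-A coding sequence. Whether that window acts as a promoter was not tested. These counts are per gene, with 2 windows each for Vegfa and Pgf, whereas the shares that follow are per window. Among all 32851 windows of that length 32.7% held a GC box, 38.6% a hypoxia core and 35.1% an ETS core. The 3 genes with an ETS core were Kdr, Nrp2 and Vegfa.

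Genes that act before and around the receptors were read from lists. Of 12 genes of oxygen sensing and VEGF induction, 4 were higher and 8 lower (median -0.091), with none at an unadjusted p under 0.05 in limma. Epas1 (HIF-2 alpha), abundant in endothelium and fat, was at -0.26 and Hif1a at -0.21. Hif1a was 7.11 ± 0.151 in KO (SD, n = 5) and 7.32 ± 0.0702 in WT (SD, n = 3). Its groups were separate by a narrow gap, KO 3 (7.235) lying just under WT 2 (7.248). It was the 1 gene of these 12 so separated, against 5.54% of all tested genes in that direction. Hif3a was at 0.54 and the coactivator Ppargc1a, which can induce Vegfa without hypoxia, at 0.30.

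Of 9 tested modulators of VEGF availability 6 were higher and 3 lower (median 0.063), and none passed after adjustment. Thbs1, the anti-angiogenic matrix protein thrombospondin 1, read 10.41, 9.85, 10.39, 10.17 and 10.23 in KO arrays 1 to 5, against 9.25, 9.58 and 9.33 in WT arrays 1 to 3. All KO arrays lay above all WT arrays, with a log2 fold change of 0.82 with an SE of 0.157 (adjusted p = 0.153 in limma). Vegfd, the remaining VEGF ligand of FLT4, was not among the 9 genes and read 6.86, 7.303, 6.99, 6.84 and 6.74 in KO arrays 1 to 5, against 7.36, 7.34 and 7.305 in WT arrays 1 to 3. It was lower in KO with no overlap, KO 2 (7.303) lying just under WT 3 (7.305), at a log2 fold change of -0.39 with an SE of 0.144 (adjusted p = 0.394 in limma). The proteoglycan Sdc2 was at 0.32 and Thbs2 at -0.38.

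Downstream of the receptors, 15 of 24 tested signal transduction genes were lower and 9 higher (median -0.14), with 5 lower and 0 higher at an unadjusted p under 0.05, against 6.46% lower and 4.04% higher among all tested genes, and none passing after adjustment. Nos3, the endothelial nitric oxide synthase that VEGF activates, read 5.66, 5.96, 6.02, 6.09 and 5.94 in KO arrays 1 to 5, against 6.36, 6.56 and 6.77 in WT arrays 1 to 3. The groups were separate, at a log2 fold change of -0.63 with an SE of 0.144 (adjusted p = 0.221 in limma). The stress kinases Mapk14 (p38, -0.40) and Mapkapk2 (-0.43), the adaptor Nck1 (-0.52) and, named after its value was seen, the kinase Fyn (-0.35) were the other lower ones.

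Of 22 partners and brakes of the receptors, including the Notch genes that restrain sprouting, 15 were lower and 7 higher (median -0.16), with 6 lower and 0 higher at an unadjusted p under 0.05, against 6.46% lower and 4.04% higher among all tested genes. Mcam, a co-receptor of KDR on endothelial and mural cells, was at -0.70 (SE 0.178, adjusted p = 0.270 in limma), the endocytic receptor Lrp1 at -0.45, the Notch target Hey1 at -0.68 and the Notch ligand Jag1 at -0.57, each with all KO arrays below all WT arrays. Of 15 tested endothelial transcription factors 11 were lower (median -0.20), led by Sox17 (-0.32), Sox18 (-0.59), Nr2f2 (-0.33) and Sox7 (-0.39), none passing after adjustment.

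Genes that VEGF induces in endothelial cells went both ways, with 6 higher and 6 lower of 12 tested (median -0.023). Dusp5, a phosphatase that ends ERK signalling, was at 0.81 and the nuclear receptor Nr4a1 at 1.38, whereas the peptide Apln was at -0.58 and the transcription factor Hlx at -0.41. Nr4a1 also belongs to the immediate early list, all 10 members of which were higher in KO, and its KO values varied widely (SD 0.877, n = 5). Of the semaphorins and plexins, which share the neuropilins, 9 of 10 were lower (median -0.17), against 55.2% of all tested genes. These 9 all overlapped between the groups, with none at an unadjusted p under 0.05 in limma. The exception Sema3c was at 0.61 (SE 0.137, adjusted p = 0.203 in limma) with all KO arrays above all WT arrays. Sema3f, a ligand of neuropilin 2, was at -0.26, Sema3g at -0.34 and the receptor Plxnd1 at -0.34. None of the genes in these lists passed after adjustment.

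**Figure D5:**
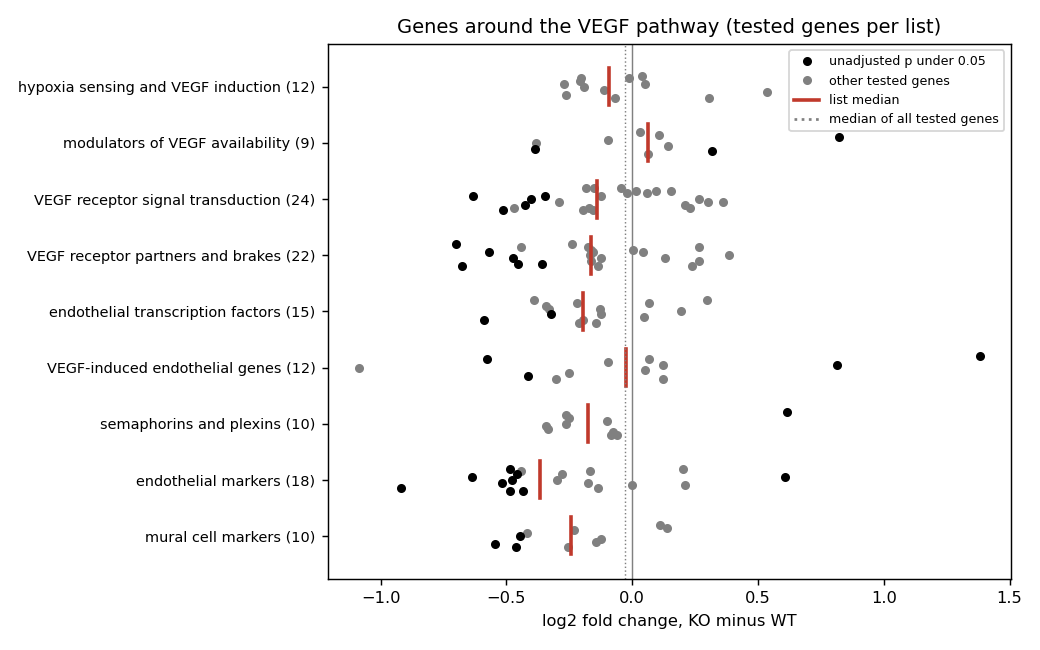
Log2 fold change, KO minus WT (horizontal axis), of the tested genes of 7 lists around the VEGF pathway and of endothelial and mural markers; black points have an unadjusted p under 0.05 in limma, red bars are list medians and the dotted line is the median of all tested genes (-0.028). The list medians run from -0.37 (endothelial markers) to 0.063 (modulators of VEGF availability).

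Across the 8 arrays the tested genes most like Kdr, by Pearson correlation, were the chromatin remodeller Chd7 (r = 0.972), Zfp672 (0.968), the insulin receptor Insr (0.961), Slc35b3 (0.961) and the histone demethylase Kdm7a (0.957). Since all were lower in KO, part of that likeness is the genotype difference itself, and for deviations from the group means the values were 0.730, 0.932, 0.620, 0.883 and 0.714. Within the VEGF genes Kdr was most like Flt1 (0.807) and Nrp2 (0.783) over the 8 arrays. For deviations from the group means its values were 0.774 with Flt1, 0.612 with Vegfa, 0.507 with Nrp1, 0.142 with Flt4, 0.128 with Vegfc, 0.044 with Nrp2 and -0.648 with Vegfb. The values for deviations with the markers Pecam1 and Cdh5, named after their values were seen, were 0.301 and 0.111. Those most like Vegfa were Tmem11 (0.953), Tmem144 (0.952), Uhrf1bp1l (0.935), Gpbp1l1 (0.931) and Cpeb4 (0.929), with Vegfb opposite (-0.656). All these rest on 8 arrays and on the best of 11090 genes, and they are descriptions without a test.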

How the data were processed

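The authors deposited log2 values, 1 for each probe set on each array, made with RMA (background correction, normalization across arrays, probe summary); both RMA and oligo appear in the submitters' processing notes, while the series design text names Expression Console. No source used here gives tool versions, array annotation or build. RNA input was 200 ng per array, and values were used as deposited. Probe sets (41345) were named from the platform annotation, which can be old: 23521 had 1 symbol, 1814 several and 16010 none listed, and 23328 of the first matched a mouse gene table (GRCm38.p6) for current symbols.

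Genotypes were compared in limma 3.58.1 (R 4.3.3; lmFit, eBayes), two-sided, with Benjamini-Hochberg adjustment over 11090 genes and a threshold of 0.05; every adjusted p is limma's. The number of arrays limits the precision. The procedure was run on simulated data with independent noise per gene, where only the mean error of the fold changes was checked. Those data lack deviations shared between genes of the same array. The members and lists were chosen with earlier results of these data known, and no set test was run. Named by rule were the 9 members, Abhd15, up to 4 tested genes of smallest p per list, and the 5 genes most correlated with Kdr and with Vegfa. Alternatives covered scaling, probe set choice, level filter, variance prior, array weights, the replicate block and left-out arrays. WT and KO share replicate numbers 1 to 3, whose meaning is not stated; deviations of same-numbered arrays correlated at 0.133, 0.103 and 0.192, all above 0.1, so the numbers were taken as pairing in the block fit, although WT 2 correlated as much with KO 1 (0.105); the other differently numbered pairs lay between -0.244 and 0.0596. No 2 arrays were identical. Figures used matplotlib 3.10.9.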

Additional observations from a re-analysis of the deposited data

How the results depend on the processing

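Kdr and Nrp2 were lower in KO under all 17 alternatives tried, but none of these could have turned the sign. The array medians lay between 2.93 and 3.12, so median centring moves a difference by less than either fold change. The level filters, variance prior and probe set choice leave their fold changes as they are. Since their groups do not overlap, leaving out, weighting or blocking arrays could not turn the sign either. With single arrays left out, Kdr had log2 fold changes of -0.74 to -0.62 (adjusted p-values of 0.112 to 0.434 in limma) and Nrp2 of -0.49 to -0.33. Kdr passed only with array weights (-0.69, adjusted p = 0.0476), which gave KO 5 a weight of 0.335. With the replicate block Kdr was at -0.71 (adjusted p = 0.137) and Nrp2 at -0.30; the block changed no VEGF gene's side of the adjusted threshold, while at an unadjusted p Nrp2 moved to 0.0806 and Vegfb to 0.0444 under it. The unadjusted p of Nrp2 was also 0.103 without WT 1 and KO 4, 0.0591 without WT 1 and 0.0522 without WT 2. Without KO 1 and KO 2, Kdr was at -0.60 and Nrp2 at -0.43; without WT 1 and KO 4, at -0.69 and -0.31. The sign of Vegfc turned with array weights (-0.027), without KO 1 and KO 2 (-0.038) and without WT 1 and KO 4 (-0.076), and ran from -0.12 to 0.17 when single arrays were left out; Vegfa ran from -0.081 to 0.11. The cause was not tested. Genes passing after adjustment numbered 40 with array weights, 2 with the replicate block, 3 with a trended robust prior and 0 to 5 with single arrays left out, 5 being without KO 5. Genes lower in KO at an unadjusted p under 0.05, 716 in the main setting, numbered 431 without WT 1 and KO 4 and 470 (without WT 1) to 831 with single arrays left out. Those higher in KO, 448 in the main setting, numbered 810 with array weights, 1071 with the replicate block, 680 with the level filter at the 25th percentile and 860 with none, where more genes were tested, and 271 (without WT 1) to 768 (without KO 5) with single arrays left out. The split of these calls also moved with centring of each array on its median (476 higher and 502 lower). Centring left Kdr at -0.65 and Nrp2 at -0.36. A second probe set could not be tried, since none of the 9 genes had one. Pgf lay below the level filter and was tested in 2 alternatives only.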
